A study of Mus musculus with 12 samples.

Results

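The genes Zbtb46, Batf3, Id2, Nfil3, Zeb2, Klf4, Bcl6, Bcl11a and Runx3 encode transcription factors that part the branches of the dendritic cell (DC) lineage, and their message was compared among 4 DC populations sorted from mouse lung. Members were taken by symbol: every probe set of the Affymetrix mouse array that carried exactly 1 of these symbols was used, 27 in all, and for each gene the probe set with the highest mean over the 12 arrays stood for it. All 9 genes had at least 1 such probe set and all 27 probe sets passed the filter on low signal, so 9 of the 10929 genes tested are described here. The other probe sets of the genes served as a check.

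The labels give 2 conventional populations, written here as CD103+ cDC and CD14lo cDC (the second CD11bhi), and 2 monocyte-derived ones, both CD11bhi, written as CD14hi moDC and, for what the labels call inf.moDCs, Ly6Chi moDC. Every population had 3 arrays. All came from male C57BL/6 mice aged 8 to 12 weeks that had received 100 ng of lipopolysaccharide, a bacterial cell wall component, and 100 µg of ovalbumin, a foreign protein, into the airways in 50 µl of buffer 16 h earlier. No group without this treatment is analysed here, so the levels are those of an inflamed lung. Each replicate pooled the cells of 20 mice, and sort purity was over 93% by the labels. In every comparison the arrays of both sides are among the same 12, so comparisons that share a population are not independent.

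As background, conventional DC arise from a bone marrow precursor under the growth factor FLT3 ligand, whereas monocyte-derived DC arise from blood monocytes that enter inflamed tissue. ZBTB46 is a zinc finger protein that marks committed precursors and mature cells of the conventional lineage. CD103+ cDC of the lung belong to the branch called cDC1, which in mice needs BATF3 together with IRF8, the helix-loop-helix inhibitor ID2 and the bZIP repressor NFIL3. ZEB2, KLF4 and BCL11A act in other branches of the myeloid and plasmacytoid lineages, BCL6 is a repressor used by several of them, and RUNX3 is a runt domain factor known from Langerhans cells, other tissue DC and T cells.

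Signals are MAS5 intensities in arbitrary units, and a log2 difference (with its SE from the limma fit, 3 arrays per population) was taken on the signal plus a pseudocount of 50.0003, so it understates the change of dim genes. A gene was called where the limma p, adjusted by the Benjamini-Hochberg method over all 10929 genes, was under 0.05. Signals of different probe sets have different sensitivities and are not set against each other. Array medians lay between 72.4 and 109, and arrays of the same population correlated at 0.973 to 0.983 across genes. The sort was borne out by Itgae, which encodes CD103, with signals of 15178 ± 2597 in CD103+ cDC and 855 ± 345 in CD14lo cDC, then 140.1 ± 19.5 in CD14hi moDC and 86.5 ± 49.2 in Ly6Chi moDC, and by Cd14, with 968 ± 425 in CD103+ cDC and 1537 ± 245 in CD14lo cDC, then 11669 ± 2479.7 in CD14hi moDC and 10836 ± 1701 in Ly6Chi moDC. The Gapdh 3' over 5' ratio, which rises as RNA degrades, averaged 2.74 ± 0.91 for the CD103+ cDC arrays, then 1.85 ± 0.39 for CD14lo cDC, 1.68 ± 0.14 for CD14hi moDC and 1.66 ± 0.22 for Ly6Chi moDC (SD, n = 3). It was highest in CD103+ cDC replicates 1 and 3, at 3.26 and 3.27, so counts of called genes that involve CD103+ cDC are also given without those arrays, which leaves 1 CD103+ cDC array that is assumed to vary like the other populations. In sorted bulk samples, fewer cells that express a gene and less message per cell cannot be told apart.

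Between the conventional and the monocyte-derived populations, 5 of the 9 genes were higher in the cDC (Zbtb46, Bcl11a, Id2, Bcl6 and Batf3) and 3 lower (Zeb2, Klf4 and Nfil3), while Runx3 was not called. Over all genes, 20.8% were called higher and 20.7% lower in this comparison, and the count of called members was also 8 without CD103+ cDC replicates 1 and 3. The median size of the log2 difference was 0.89 over the 9 members, against 0.28 over all genes tested. The members were chosen with earlier results of these data known, so this contrast describes them and is no test. The pseudocount also shrinks the differences of dim genes among all genes. The largest differences were those of Zeb2, 6.78-fold lower in the cDC (log2 difference -2.76 ± 0.13, adjusted p = 1.14e-11), and Zbtb46, 6.36-fold higher (log2 difference 2.67 ± 0.14, adjusted p = 3.27e-11). These were also the only 2 members for which every array of the 2 cDC populations lay on one side of every array of the 2 moDC populations. Since this contrast averages 2 populations on each side, the members are described below population by population.

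Across the 4 populations, all 9 members differed by the moderated F test, with adjusted p between 1.22e-12 for Zeb2 and 0.00173 for Runx3, where 51.1% of all genes did, and 9 were called without CD103+ cDC replicates 1 and 3. The span between the highest and the lowest population mean was 4.91 for Zeb2, 4.29 for Zbtb46, 3.09 for Bcl11a and 2.23 for Id2 on the log2 scale, and between 0.58 for Runx3 and 1.49 for Batf3 for the others. The lower end of the Zeb2 span lies in CD103+ cDC, with signals near the array median, so its size depends on the pseudocount.

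**Figure D1:**
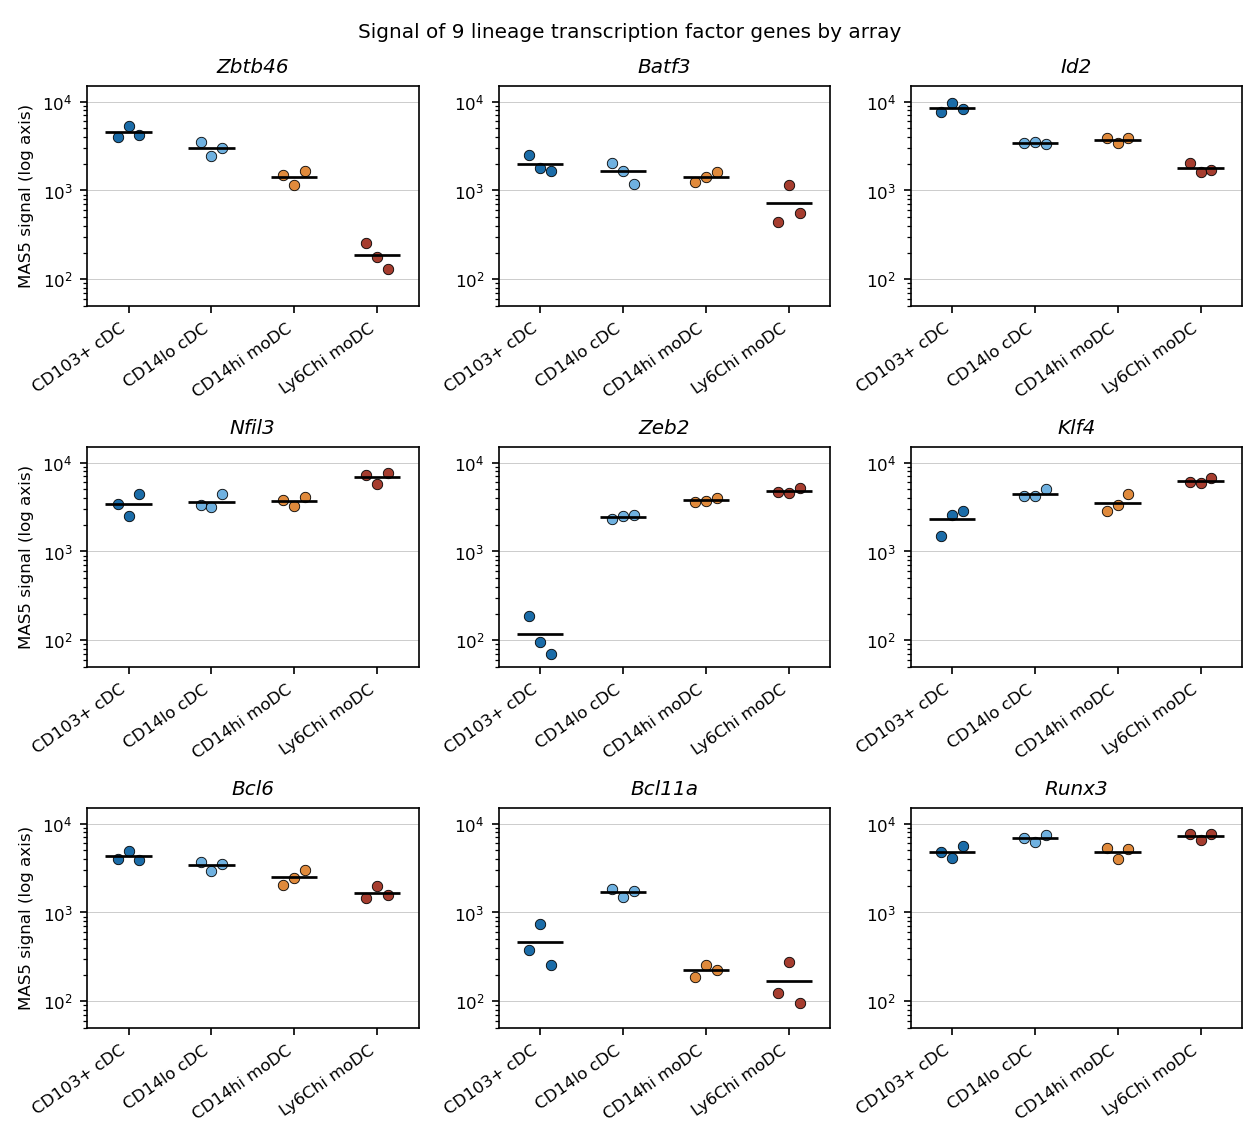
MAS5 signal on a log axis for each of the 9 genes, with 1 point per array, 3 arrays per population, and a bar at the population mean. Zbtb46 falls from left to right with Ly6Chi moDC lowest, Zeb2 is lowest in CD103+ cDC, Bcl11a is highest in CD14lo cDC, and heights are not comparable between panels because probe sets differ in sensitivity.

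By pair of populations, the members were most often called between the outer populations. CD103+ cDC over Ly6Chi moDC had 5 members higher and 4 lower, all 9, where 23.2% and 24.3% of all genes were called higher and lower. CD103+ cDC over CD14lo cDC had 2 higher (Zbtb46 and Id2) and 4 lower (Zeb2, Klf4, Bcl11a and Runx3), against 13.4% and 15.3% of all genes. CD103+ cDC over CD14hi moDC had 4 higher (Zbtb46, Id2, Bcl6 and Bcl11a) and 2 lower (Zeb2 and Klf4), against 16.9% and 20.3%. Without CD103+ cDC replicates 1 and 3, these 3 counts of called members, now with a single CD103+ cDC array and the spread taken from the other populations, were 9, 5 and 5, with Zbtb46 lost from the comparison with CD14lo cDC (adjusted p = 0.0588) and Klf4 from that with CD14hi moDC (adjusted p = 0.172). Among the CD11bhi populations, CD14lo cDC over CD14hi moDC had 3 higher (Zbtb46, Bcl11a and Runx3) and 1 lower (Zeb2), against 6.95% and 9.24% of all genes. This count of 4 was 2 without CD14lo cDC replicate 1, CD14lo cDC replicate 3 or CD14hi moDC replicate 2. CD14lo cDC over Ly6Chi moDC had 5 higher and 2 lower, against 14.0% and 11.2%. CD14hi moDC over Ly6Chi moDC had 4 higher (Zbtb46, Batf3, Id2 and Bcl6) and 3 lower (Nfil3, Klf4 and Runx3), against 11.4% and 6.82%. In that last comparison, 1248 genes were called higher and 745 lower, a share of 62.6% higher. With arrays centred on their medians, which moved the median of all genes by -0.11, the numbers were 1013 and 1188, a share of 46.0% higher. Median centring also turned the balance in 3 other pairs, by less than 10 percentage points: the share higher with centring was 53.2%, against 46.7% without, in CD103+ cDC over CD14lo cDC, 55.3%, against 45.5% without, in CD103+ cDC over CD14hi moDC and 47.1%, against 55.5% without, in CD14lo cDC over Ly6Chi moDC.

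**Figure D2:**
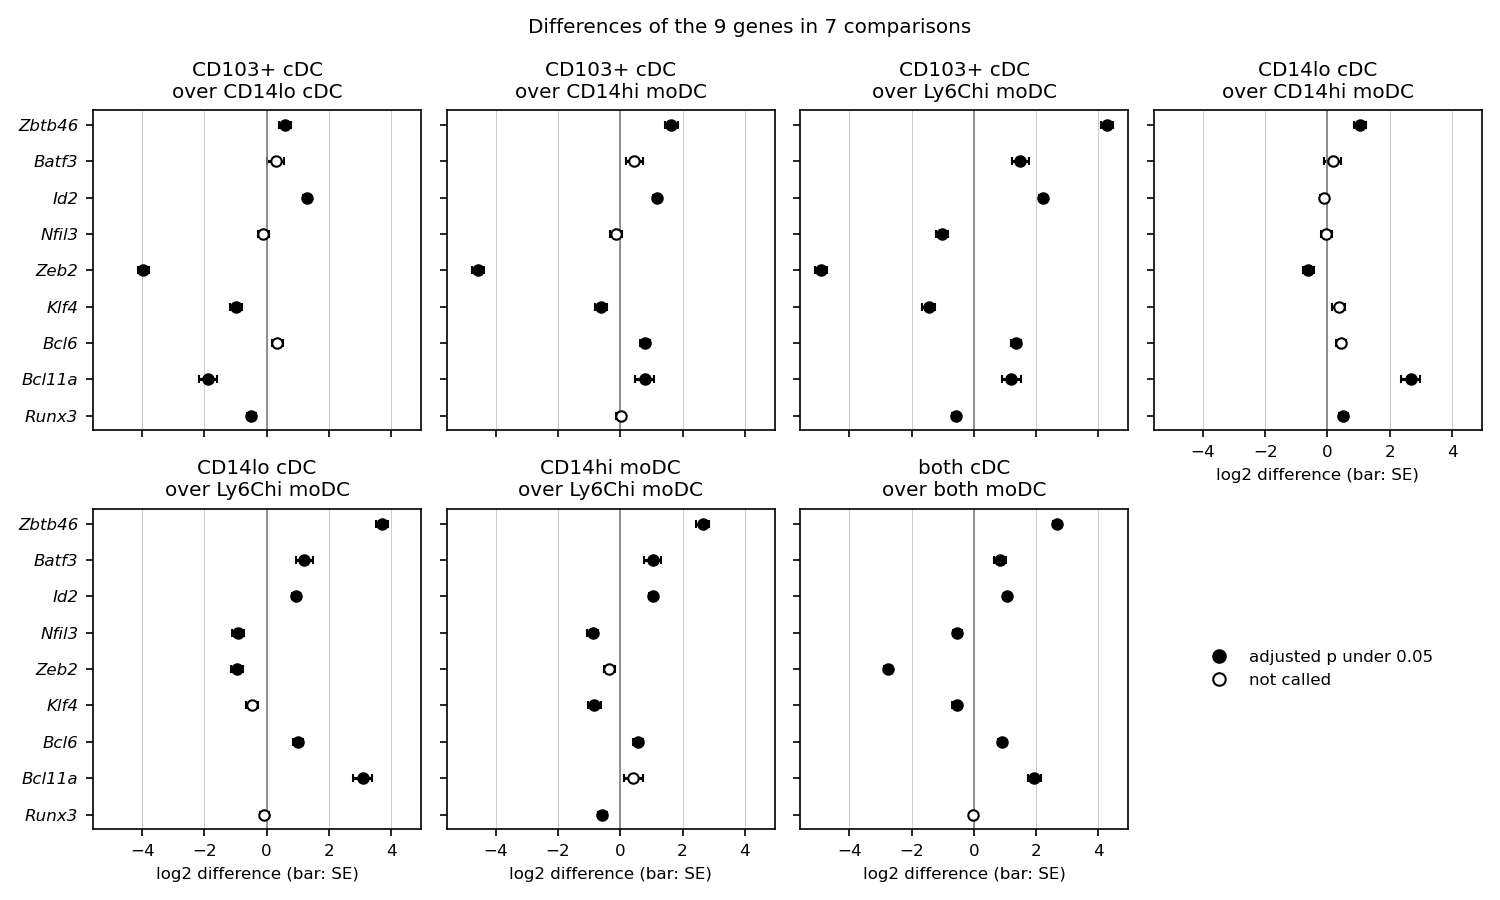
Log2 difference of each gene (horizontal axis, bar: SE) in the 6 pairs of populations and between both cDC and both moDC; filled points were called at an adjusted p under 0.05. All 9 genes are called between CD103+ cDC and Ly6Chi moDC and 4 between CD14lo cDC and CD14hi moDC, and Zeb2 lies farthest to the left in each panel with CD103+ cDC.

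Zbtb46, the marker of the conventional lineage, stepped down through all 4 populations. Zbtb46 had signals of 4039, 5329 and 4236 in the CD103+ cDC arrays and 3536, 2467 and 2999 in the CD14lo cDC arrays. In the CD14hi moDC arrays it had 1489.6, 1143 and 1638, and in the Ly6Chi moDC arrays 257, 178 and 131. The arrays of no 2 populations overlapped, with CD103+ cDC highest and Ly6Chi moDC lowest. The mean was 4535 ± 695 in CD103+ cDC and 3001 ± 534 in CD14lo cDC, a 1.51-fold difference (log2 difference 0.59 ± 0.20, adjusted p = 0.0316). CD14lo cDC had 2.07-fold more than CD14hi moDC (log2 difference 1.05 ± 0.20, adjusted p = 0.000924), whose mean was 1424 ± 254. The widest gap between neighbours in this order lay between CD14hi moDC and Ly6Chi moDC, with a mean of 188.5 ± 63.3 in the second, a 6.26-fold difference (log2 difference 2.65 ± 0.20, adjusted p = 1.7e-08). All 3 CD14hi moDC arrays lay far above their own medians of 96.7 to 109 for Zbtb46. The difference between CD103+ cDC and CD14lo cDC was the least firm of them: 1 of the other 3 probe sets called it, with log2 differences of 0.15 to 0.66 over the 4, and without CD103+ cDC replicate 2 it was 0.47 (adjusted p = 0.12). All 4 probe sets called the other 5 pairs in the same direction.

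Batf3, the bZIP factor that the cDC1 branch needs in mice, separated Ly6Chi moDC from the rest and not CD103+ cDC from the others. Batf3 had signals of 2496, 1793 and 1668 in the CD103+ cDC arrays and 2050.1, 1674 and 1182 in the CD14lo cDC arrays. The signals were 1234, 1416 and 1629 in CD14hi moDC and 443, 1166 and 551 in Ly6Chi moDC. In Ly6Chi moDC all 3 arrays were below every array of the other populations, and replicate 2 there stood above replicates 1 and 3. Batf3 was 2.82-fold higher in CD103+ cDC than in Ly6Chi moDC (log2 difference 1.49 ± 0.27, adjusted p = 0.000142), 2.31-fold higher in CD14lo cDC (log2 difference 1.21 ± 0.27, adjusted p = 0.00218) and 2.06-fold higher in CD14hi moDC (log2 difference 1.04 ± 0.27, adjusted p = 0.00936). Between CD103+ cDC and CD14lo cDC, the arrays overlapped and the difference was not called (log2 difference 0.28 ± 0.27, adjusted p = 0.472), with a 95% interval of -0.28 to 0.85 on the log2 scale. The same held for CD14lo cDC over CD14hi moDC (log2 difference 0.17 ± 0.27, adjusted p = 0.754). Against CD14hi moDC the CD103+ cDC arrays did not overlap, but the difference of 0.45 ± 0.27 was not called (adjusted p = 0.204). Batf3 had only 1 probe set, so no second one checks these values, and the call between CD14hi moDC and Ly6Chi moDC was lost without Ly6Chi moDC replicate 1 (0.78, adjusted p = 0.067) or replicate 3 (0.92, adjusted p = 0.0505).

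Genes known as markers of the BATF3-dependent lineage were higher in CD103+ cDC. Of 12 such genes listed, 10 were tested, and all 10 were higher in CD103+ cDC than in CD14lo cDC, where 13.4% of all genes were called higher, with a median log2 difference of 2.74, against -0.03 over all genes. All 10 were also called without CD103+ cDC replicates 1 and 3. Several of them, Itgae among them, are the markers by which such cells are known or sorted, and the list was chosen with earlier results of these data known. The contrast with all genes therefore describes these genes and is no test. The chemokine receptor gene Xcr1 had signals of 2656 ± 744 in CD103+ cDC and 94.8 ± 41.2 in CD14lo cDC (log2 difference 4.23 ± 0.24, adjusted p = 3.5e-10). Irf8, the partner of BATF3, had 12195 ± 1011 in CD103+ cDC and 2367 ± 391 in CD14lo cDC, then 2143 ± 133 in CD14hi moDC and 2716 ± 326 in Ly6Chi moDC. It was 5.10-fold higher in CD103+ cDC than in CD14lo cDC (log2 difference 2.35 ± 0.14, adjusted p = 7.04e-10) and was not called among the other 3 populations. The adhesion gene Cadm1 of this list was high in CD14hi moDC as well, with 3811 ± 816 in CD103+ cDC and 262 ± 48.4 in CD14lo cDC, then 2868 ± 693 in CD14hi moDC and 49.3 ± 20.7 in Ly6Chi moDC, and was not called between CD103+ cDC and CD14hi moDC (log2 difference 0.41 ± 0.21, adjusted p = 0.151). Batf, the nearest relative of Batf3, was lower in CD103+ cDC than in CD14lo cDC: its signal was 997 ± 374 in CD103+ cDC and 1905 ± 476 in CD14lo cDC (log2 difference -0.93 ± 0.23, adjusted p = 0.00572). Of 11 BATF, JUN, FOS and small MAF genes tested, 1 was higher and 2 lower in CD103+ cDC than in CD14lo cDC, near the 13.4% and 15.3% of all genes. With CD103+ cDC replicates 1 and 3 left out, 2 were called, both lower. The largest of these differences was that of Fosl2, which encodes the FOS family protein FRA2, with 1979.8 ± 752 in CD103+ cDC and 8008 ± 1496 in CD14lo cDC (log2 difference -2.05 ± 0.25, adjusted p = 5.82e-06).

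Id2, which encodes an inhibitor that binds E proteins and keeps them off DNA, was highest in CD103+ cDC, lowest in Ly6Chi moDC and intermediate in the other 2 populations. Id2 had signals of 7605, 9671 and 8322 in the CD103+ cDC arrays and 3460.2, 3539 and 3335 in the CD14lo cDC arrays. CD14hi moDC gave 3904, 3422 and 3878, and Ly6Chi moDC 2025, 1604 and 1719. The CD103+ cDC arrays were all above and the Ly6Chi moDC arrays all below every other array, while those of CD14lo cDC and CD14hi moDC overlapped. Id2 was 2.44-fold higher in CD103+ cDC than in CD14lo cDC (log2 difference 1.29 ± 0.13, adjusted p = 5.31e-07) and 4.68-fold higher than in Ly6Chi moDC (log2 difference 2.23 ± 0.13, adjusted p = 8.91e-11). CD14hi moDC, in turn, exceeded Ly6Chi moDC by 2.07-fold (log2 difference 1.05 ± 0.13, adjusted p = 1.14e-05). CD14lo cDC over CD14hi moDC was not called (-0.11 ± 0.13, adjusted p = 0.645), with a 95% interval of -0.39 to 0.16. All 3 probe sets called the same 5 pairs in the same direction. Id3, the nearest relative with the same action on E proteins, was lowest where Id2 was highest and highest where it was lowest, with 249 ± 54.9 in CD103+ cDC and 604 ± 68.6 in CD14lo cDC, then 886 ± 231 in CD14hi moDC and 1425 ± 550.2 in Ly6Chi moDC, and was 4.77-fold lower in CD103+ cDC than in Ly6Chi moDC (log2 difference -2.26 ± 0.24, adjusted p = 2.96e-07). Its 3 Ly6Chi moDC arrays were widely spread. Id1, another ID gene, had 120 ± 34.8 in CD103+ cDC, 109 ± 15.8 in CD14lo cDC and 95.5 ± 23.5 in CD14hi moDC. It was highest in Ly6Chi moDC, at 212 ± 39.0. Among the E protein genes themselves, Tcf3, Tcf4 and Tcf12, adjusted p by limma lay between 0.0529 and 0.979 over the 7 comparisons, with an unadjusted p under 0.05 for 3 of the differences. Tcf4, known for its part in plasmacytoid DC, had 1472 ± 236 in CD103+ cDC and 2045 ± 163 in CD14lo cDC, then 1718 ± 415 in CD14hi moDC and 2079 ± 660.5 in Ly6Chi moDC.

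Nfil3, needed for the cDC1 branch in mice and also for natural killer cells, was highest in Ly6Chi moDC and showed no called difference among the other 3 populations. Nfil3 had signals of 3397, 2534 and 4382 in the CD103+ cDC arrays and 3329, 3177 and 4447 in the CD14lo cDC arrays. In the CD14hi moDC arrays it had 3756, 3265 and 4098, and in the Ly6Chi moDC arrays 7302, 5708 and 7713. The Ly6Chi moDC arrays were all above every other array, and the arrays of the other populations overlapped each other. It was 2.03-fold lower in CD103+ cDC than in Ly6Chi moDC (log2 difference -1.02 ± 0.18, adjusted p = 0.000153), 1.89-fold lower in CD14lo cDC (log2 difference -0.91 ± 0.18, adjusted p = 0.000958) and 1.84-fold lower in CD14hi moDC (log2 difference -0.88 ± 0.18, adjusted p = 0.00195). Between CD103+ cDC and CD14lo cDC the log2 difference was -0.10 ± 0.18 (adjusted p = 0.723), with a 95% interval of -0.49 to 0.28. Nfil3, like Batf3, has only 1 probe set. The summed signal of 7 natural killer and innate lymphoid genes was 7154 to 8301 in CD14lo cDC, against 1480.4 to 1791 in Ly6Chi moDC. Most of it was Klrd1, with 6418 ± 383 in CD14lo cDC and 481 ± 30.5 in Ly6Chi moDC, while Ncr1, Nkg7, Eomes and Gzmb lay below the array median in both. The part of these cells in the Nfil3 difference was not tested. Cebpb, which encodes the myeloid bZIP factor C/EBPβ, was also highest in Ly6Chi moDC. Its signal was 469 ± 140.0 in CD103+ cDC and 3495 ± 434 in CD14lo cDC, then 6714 ± 849.7 in CD14hi moDC and 11719.5 ± 162 in Ly6Chi moDC, and it was 23.2-fold lower in CD103+ cDC than in Ly6Chi moDC (log2 difference -4.54 ± 0.16, adjusted p = 2.58e-13). The PAR bZIP genes, closer relatives of Nfil3, were dimmer. Dbp had 83.1 ± 39.8 in CD103+ cDC and 185 ± 28.2 in CD14lo cDC, then 203 ± 68.8 in CD14hi moDC and 175 ± 60.1 in Ly6Chi moDC. Tef had 215 ± 58.8, 182 ± 43.3, 128 ± 19.1 and 218 ± 68.1 in the same order. Of 6 PAR bZIP and C/EBP genes tested, 4 were lower in CD103+ cDC than in Ly6Chi moDC and the other 2 were not called, where 24.3% of all genes were called lower. Without CD103+ cDC replicates 1 and 3, 3 were lower.

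Zeb2, a zinc finger homeobox repressor that binds E-boxes and is required for plasmacytoid DC, CD11b+ cDC and monocytes in mice, had the widest span of the 9 genes. Zeb2 had signals of 186, 96.5 and 70.7 in the CD103+ cDC arrays and 2296, 2491 and 2572 in the CD14lo cDC arrays. The signals were 3589, 3738 and 3978 in CD14hi moDC and 4687, 4528 and 5211 in Ly6Chi moDC. The CD103+ cDC arrays lay near their own array medians of 82.8, 104 and 91.4, and the other populations lay far above theirs. Zeb2 was 15.5-fold lower in CD103+ cDC than in CD14lo cDC (log2 difference -3.96 ± 0.19, adjusted p = 4.38e-11), 23.7-fold lower than in CD14hi moDC (log2 difference -4.57 ± 0.19, adjusted p = 3.53e-12) and 30.1-fold lower than in Ly6Chi moDC (log2 difference -4.91 ± 0.19, adjusted p = 4.5e-13). With a pseudocount of 25.0001 in place of 50.0003, the Zeb2 difference from Ly6Chi moDC was -5.16, and with 100.001 it was -4.53. The other 4 Zeb2 probe sets had signals between 1.37 and 43.3 on the 3 CD103+ cDC arrays, all below the array medians, and all 5 called Zeb2 lower in CD103+ cDC against each of the other populations.

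Among the CD11bhi populations Zeb2 was graded. The mean was 2453 ± 142 in CD14lo cDC and 3768 ± 197 in CD14hi moDC, a 1.53-fold difference (log2 difference -0.61 ± 0.19, adjusted p = 0.0319), and the arrays did not overlap. This call rested close to the threshold: it was lost when any 1 of the 6 arrays was left out (adjusted p between 0.0646 and 0.0967), although 4 of the 5 probe sets made it. CD14lo cDC was 1.94-fold lower than Ly6Chi moDC, which had 4809 ± 357 (log2 difference -0.96 ± 0.19, adjusted p = 0.000765). CD14hi moDC over Ly6Chi moDC did not overlap either but was not called (log2 difference -0.35 ± 0.19, adjusted p = 0.233). Zeb1, the closest relative of Zeb2, ran in the opposite order, with 2689 ± 676 in CD103+ cDC and 1301 ± 71.3 in CD14lo cDC, then 964 ± 202 in CD14hi moDC and 208 ± 41.5 in Ly6Chi moDC. It was 10.5-fold higher in CD103+ cDC than in Ly6Chi moDC (log2 difference 3.39 ± 0.19, adjusted p = 6.04e-11), and all steps but that from CD14lo cDC to CD14hi moDC were called. The Zeb1 call between CD103+ cDC and CD14lo cDC was lost without CD103+ cDC replicates 1 and 3, a fit that leaves 1 CD103+ cDC array. Thus of Zeb2 and Zeb1, and likewise of Id2 and Id3, 1 gene was higher and 1 was lower in CD103+ cDC than in Ly6Chi moDC.

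**Figure D3:**
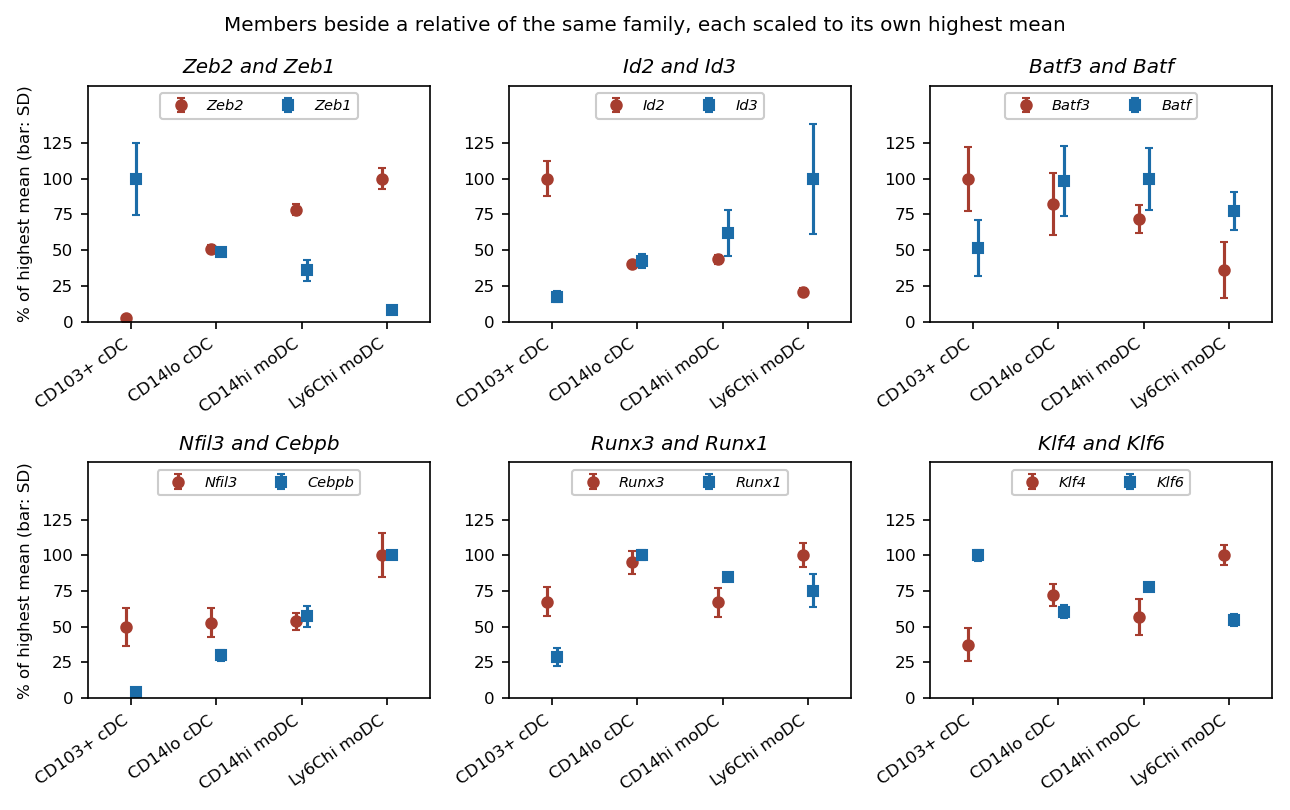
Mean signal as a percentage of each gene's own highest population mean (bar: SD, n = 3 arrays) for 6 of the genes, as circles, and a related gene, as squares. Cebpb, set beside Nfil3, shares its bZIP class but belongs to the C/EBP genes. Klf6, set beside Klf4, was the 1 of 8 other Krüppel-like factor genes called higher in CD103+ cDC than in CD14lo cDC, where 5 were lower. Zeb2 and Zeb1 run in opposite order across the populations, Id2 and Id3 peak at opposite ends, and Nfil3 and Cebpb are both highest in Ly6Chi moDC.

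The sequence before the start site is shown for 3 members, Zbtb46 and Zeb2 because they had the widest spans in opposite directions, and Id2 because it was highest in CD103+ cDC, where Zeb2 was lowest. Each is the 250 bases before a RefSeq start (build GRCm38.p6), written 5′ to 3′ along the gene's strand, with E-boxes (CANNTG), the sites that E proteins and ZEB proteins bind, in capitals. The Zbtb46 window is chr2:181424389-181424638, strand -, before a start that lies inside the annotated gene and so may not be its main promoter (chr2:181371009-181493262). The Id2 window is chr12:25096093-25096342, strand -, and the Zeb2 window, before the first of its 4 starts, is chr2:45117443-45117692, strand -.
Zbtb46 window: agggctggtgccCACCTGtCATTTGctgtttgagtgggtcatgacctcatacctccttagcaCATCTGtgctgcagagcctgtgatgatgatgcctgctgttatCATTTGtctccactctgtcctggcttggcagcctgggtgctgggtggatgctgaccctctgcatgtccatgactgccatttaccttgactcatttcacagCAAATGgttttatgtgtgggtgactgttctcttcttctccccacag
Id2 window: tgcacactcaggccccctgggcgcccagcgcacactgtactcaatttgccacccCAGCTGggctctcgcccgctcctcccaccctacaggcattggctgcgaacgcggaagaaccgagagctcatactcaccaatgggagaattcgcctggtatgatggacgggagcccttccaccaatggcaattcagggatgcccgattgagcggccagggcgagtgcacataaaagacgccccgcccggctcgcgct
Zeb2 window: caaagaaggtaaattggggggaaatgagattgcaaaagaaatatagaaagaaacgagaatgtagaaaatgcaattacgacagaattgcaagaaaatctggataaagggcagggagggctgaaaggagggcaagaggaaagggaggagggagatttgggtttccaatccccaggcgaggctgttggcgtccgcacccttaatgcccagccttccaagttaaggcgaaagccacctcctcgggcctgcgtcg
The Zbtb46 window holds 5 E-boxes, the Id2 window 1 and the Zeb2 window 0, where 66.2% of 32851 promoter windows of this length hold at least 1. The form CACCTG (or CAGGTG on the other strand), the form ZEB proteins are known to prefer and a subset of CANNTG, occurs in the Zbtb46 window at base -238 and in 1 of the 2 Runx3 windows at base -233, and in none of the other windows of the 9 genes. In all, 17.2% of windows hold it. The Zbtb46 window also holds TGACTCA, a match to the AP-1 type site TGANTCA that BATF and FOS proteins bind, at base -61. The window of the fourth Zeb2 start holds 2 matches, and no other window of the 9 genes holds one, where 6.75% of all windows do. The letters ACCACA (or TGTGGT), the core site of RUNX proteins, occur at 2 places in the same Runx3 window and in no other window of the 9 genes, against 14.0% of all windows. These are letter matches in 1 short stretch and no evidence of binding was measured here.

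Klf4, a Krüppel-like factor of monocyte differentiation that in mice also serves a subset of CD11b+ cDC, was lowest in CD103+ cDC and highest in Ly6Chi moDC. Klf4 had signals of 1506, 2578 and 2872 in the CD103+ cDC arrays and 4231, 4194 and 5046 in the CD14lo cDC arrays. CD14hi moDC gave 2873, 3319.7 and 4405, and Ly6Chi moDC 6087, 5876 and 6698. CD103+ cDC did not overlap with CD14lo cDC or Ly6Chi moDC, and its highest array lay just below the lowest of CD14hi moDC. Klf4 was 1.98-fold lower in CD103+ cDC than in CD14lo cDC (log2 difference -0.98 ± 0.20, adjusted p = 0.000917) and 2.74-fold lower than in Ly6Chi moDC (log2 difference -1.45 ± 0.20, adjusted p = 6.51e-06). CD14hi moDC was 1.78-fold lower than Ly6Chi moDC (log2 difference -0.83 ± 0.20, adjusted p = 0.00561). The order within the CD11bhi populations did not follow the cDC and moDC labels: CD14lo cDC, with 4490.3 ± 482, lay between CD14hi moDC and Ly6Chi moDC and was called different from neither (0.36 ± 0.20, adjusted p = 0.266, and -0.47 ± 0.20, adjusted p = 0.0967). The difference from Ly6Chi moDC was called in limma fits with a replicate block (adjusted p = 0.0343) or with only the arrays compared (adjusted p = 0.00999). The second Klf4 probe set called the same pairs except CD103+ cDC over CD14hi moDC (-0.26, adjusted p = 0.256), a call that was also lost without CD103+ cDC replicate 1 (-0.35, adjusted p = 0.122) or without CD14hi moDC replicate 3 (-0.46, adjusted p = 0.103). Among 8 other Krüppel-like factor genes, 1 was higher and 5 were lower in CD103+ cDC than in CD14lo cDC, where 13.4% and 15.3% of all genes were. Without CD103+ cDC replicates 1 and 3, 1 was higher and 3 were lower. The higher one was Klf6, with 14741 ± 596 in CD103+ cDC and 8907 ± 677 in CD14lo cDC, then 11456 ± 297 in CD14hi moDC and 8029 ± 612 in Ly6Chi moDC, and among the lower ones Klf9 had 677 ± 239.6 in CD103+ cDC and 1601 ± 454 in CD14lo cDC (log2 difference -1.20 ± 0.24, adjusted p = 0.00102).

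Bcl6, a BTB zinc finger repressor that cDC1 and some CD11b+ cDC need in mice, had means in the same order as Zbtb46 on its brightest probe set, over a smaller span. Bcl6 had signals of 4044, 4968 and 3941 in the CD103+ cDC arrays and 3734, 2895 and 3538 in the CD14lo cDC arrays. In the CD14hi moDC arrays it had 2051, 2446 and 3014, and in the Ly6Chi moDC arrays 1457, 1981 and 1574. The CD103+ cDC arrays were all above those of the 3 other populations, and CD14lo cDC and CD14hi moDC overlapped. Bcl6 was 2.55-fold higher in CD103+ cDC than in Ly6Chi moDC (log2 difference 1.35 ± 0.16, adjusted p = 1.79e-06), 1.72-fold higher than in CD14hi moDC (log2 difference 0.78 ± 0.16, adjusted p = 0.000964) and 2.00-fold higher in CD14lo cDC than in Ly6Chi moDC (log2 difference 1.00 ± 0.16, adjusted p = 0.000134). Which neighbours differed depended on the probe set. With the brightest, neither CD103+ cDC over CD14lo cDC (log2 difference 0.35 ± 0.16, adjusted p = 0.132) nor CD14lo cDC over CD14hi moDC (log2 difference 0.44 ± 0.16, adjusted p = 0.0836) was called. CD14hi moDC over Ly6Chi moDC was called (log2 difference 0.56 ± 0.16, adjusted p = 0.0218). This call was lost with median centring (adjusted p = 0.0637). It was also lost without CD14hi moDC replicate 2 or 3, or Ly6Chi moDC replicate 1 or 3 (adjusted p between 0.0573 and 0.125). With the other Bcl6 probe set, CD103+ cDC over CD14lo cDC (0.79, adjusted p = 0.000333) and CD14lo cDC over CD14hi moDC (0.77, adjusted p = 0.000744) were called. CD14hi moDC over Ly6Chi moDC was not (-0.04, adjusted p = 0.899). On that probe set the signals were 4469.7, 3705 and 4585 in CD103+ cDC and 2149.5, 2808 and 2371 in CD14lo cDC, then 1495, 1314 and 1408 in CD14hi moDC and 1370.0, 1440.4 and 1523 in Ly6Chi moDC. Both probe sets called Bcl6 higher in CD103+ cDC than in either moDC population. Prdm1, which encodes BLIMP1, a repressor that opposes BCL6 in lymphocytes, ran in the reverse order, with 342 ± 70.6 in CD103+ cDC and 575 ± 135 in CD14lo cDC, then 714 ± 211 in CD14hi moDC and 1089 ± 261 in Ly6Chi moDC, and was 2.88-fold lower in CD103+ cDC than in Ly6Chi moDC (log2 difference -1.53 ± 0.23, adjusted p = 2.44e-05). Bcor, which encodes a corepressor of BCL6, was higher in CD103+ cDC (1999.7 ± 249.8) than in Ly6Chi moDC (1079.8 ± 90.9, log2 difference 0.86 ± 0.14, adjusted p = 6.63e-05).

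Bcl11a, a zinc finger factor required for plasmacytoid DC and B cells in mice, was the 1 member that was highest in CD14lo cDC and called there against all 3 others. Bcl11a had signals of 380.2, 744 and 254 in the CD103+ cDC arrays and 1814, 1512 and 1746 in the CD14lo cDC arrays. The signals were 189, 255 and 225 in CD14hi moDC and 125, 279.5 and 96.2 in Ly6Chi moDC. The CD14lo cDC arrays were all above the rest, CD103+ cDC varied widely with replicate 2 highest, and the 2 moDC populations overlapped. It was 3.69-fold lower in CD103+ cDC than in CD14lo cDC (log2 difference -1.88 ± 0.30, adjusted p = 0.000109), 6.39-fold higher in CD14lo cDC than in CD14hi moDC (log2 difference 2.68 ± 0.30, adjusted p = 4.33e-06) and 8.52-fold higher than in Ly6Chi moDC (log2 difference 3.09 ± 0.30, adjusted p = 3.32e-07). All 7 probe sets called the last 2 differences and 6 of 7 the first. CD103+ cDC over CD14hi moDC was called at the margin (log2 difference 0.79 ± 0.30, adjusted p = 0.0482) although the arrays overlapped. Without CD103+ cDC replicate 2 it was 0.41 (adjusted p = 0.272), and it was lost too without any 1 of 8 other arrays. CD103+ cDC over Ly6Chi moDC was called (log2 difference 1.21 ± 0.30, adjusted p = 0.00296), but the arrays overlapped and only 4 of the 7 probe sets called it. CD14hi moDC over Ly6Chi moDC was not called (log2 difference 0.42 ± 0.30, adjusted p = 0.399).

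Markers of the cells in which Bcl11a is best known were mixed in CD14lo cDC. The summed signal of 7 B cell genes was 1258 to 1622 in CD103+ cDC and 423 to 1124 in CD14lo cDC, then 417 to 703 in CD14hi moDC and 593 to 717 in Ly6Chi moDC, with Pax5 and Ebf1 below the array median in all 4. Fcrla made up most of the CD103+ cDC sum, at 1029 ± 132, against 108 ± 44.9 in CD14lo cDC. The 8 plasmacytoid DC genes, which include Spib, summed to 4143 to 5604 in CD103+ cDC and 5489 to 7649 in CD14lo cDC, then 6268 to 6313 in CD14hi moDC and 6622 to 7500.2 in Ly6Chi moDC. Most of this sum was Bst2, with 2710 ± 661 in CD103+ cDC and 3585 ± 1012 in CD14lo cDC, then 4931 ± 21.3 in CD14hi moDC and 6064 ± 457 in Ly6Chi moDC, and Pacsin1 lay below the array median in CD14lo cDC. Siglech, Ccr9 and Pacsin1 were highest in CD103+ cDC, at 344 ± 31.4, 220 ± 58.8 and 225 ± 65.0. In CD14lo cDC these genes had 116 ± 42.8, 94.1 ± 22.8 and 58.2 ± 14.2. Ly6d also had its highest mean in CD103+ cDC, while Bst2, Spib, Klk1 and Cox6a2 had lower means there than in CD14lo cDC. Spib, an ETS factor of plasmacytoid DC, peaked with Bcl11a in CD14lo cDC, with 1061 ± 241 in CD103+ cDC and 1869 ± 275 in CD14lo cDC, then 522 ± 64.0 in CD14hi moDC and 124 ± 12.5 in Ly6Chi moDC. Irf4, which CD11b+ cDC need, also peaked there, with 935 ± 304 in CD103+ cDC and 2524 ± 389 in CD14lo cDC, then 1537 ± 363 in CD14hi moDC and 436 ± 133 in Ly6Chi moDC. The summed signal of 7 natural killer and innate lymphoid genes was likewise highest in CD14lo cDC, at 3255 to 3865 in CD103+ cDC and 7154 to 8301 in CD14lo cDC, then 1878 to 2414 in CD14hi moDC and 1480.4 to 1791 in Ly6Chi moDC, with Ncr1, Nkg7, Eomes and Gzmb below the array median in all 4. The part of B cells, plasmacytoid DC, natural killer and innate lymphoid cells in the Bcl11a difference was not tested.

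Runx3, the runt factor of Langerhans cells and cytotoxic T cells, had the narrowest span and no called difference between the conventional and the monocyte-derived side. Runx3 had signals of 4826, 4140.1 and 5603 in the CD103+ cDC arrays and 6914, 6233 and 7386 in the CD14lo cDC arrays. CD14hi moDC gave 5319, 4001 and 5157, and Ly6Chi moDC 7562, 6497 and 7565. CD14lo cDC and Ly6Chi moDC overlapped each other and lay above the other 2 populations, which overlapped too. Runx3 was 1.41-fold lower in CD103+ cDC than in CD14lo cDC (log2 difference -0.50 ± 0.14, adjusted p = 0.0128), 1.42-fold higher in CD14lo cDC than in CD14hi moDC (log2 difference 0.51 ± 0.14, adjusted p = 0.0186) and lower in CD14hi moDC than in Ly6Chi moDC (log2 difference -0.58 ± 0.14, adjusted p = 0.00681). Between both cDC and both moDC the log2 difference was -0.03 ± 0.10 (adjusted p = 0.827), with a 95% interval of -0.24 to 0.18. The second Runx3 probe set had the same signs in the pairs called but called none of them (adjusted p between 0.097 and 0.355), so the Runx3 differences rest on 1 probe set. The summed signal of 6 T cell genes was 310 to 489 in CD103+ cDC and 355 to 511 in CD14lo cDC, then 695 to 857 in CD14hi moDC and 299 to 416 in Ly6Chi moDC. In CD14hi moDC 5 of the 6 lay below the array median, and Cd2, the other, had 600 ± 133 there. The part of T cells in the Runx3 differences was not tested. Runx1, its relative, was low in CD103+ cDC alone, with 1109.8 ± 254 in CD103+ cDC and 3865 ± 139 in CD14lo cDC, then 3279 ± 119 in CD14hi moDC and 2907 ± 444 in Ly6Chi moDC, 3.42-fold lower there than in CD14lo cDC (log2 difference -1.78 ± 0.16, adjusted p = 7.25e-08). Cbfb, which encodes the partner that RUNX proteins share, was not called between those 2 populations (log2 difference 0.22 ± 0.12, adjusted p = 0.174).

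Where a gene had several probe sets, they mostly pointed the same way. All 4 Zbtb46, 3 Id2, 5 Zeb2, 2 Klf4, 2 Bcl6 and 7 Bcl11a probe sets had the sign of the brightest one between both cDC and both moDC, and all of them called it. The 2 Runx3 probe sets differed in sign there, at -0.03 and 0.04. Sizes varied more than signs: Zeb2 in CD103+ cDC over CD14lo cDC ran from -4.04 to -2.12, and Bcl11a in CD14lo cDC over CD14hi moDC from 1.00 to 2.76, over their probe sets.

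**Figure D4:**
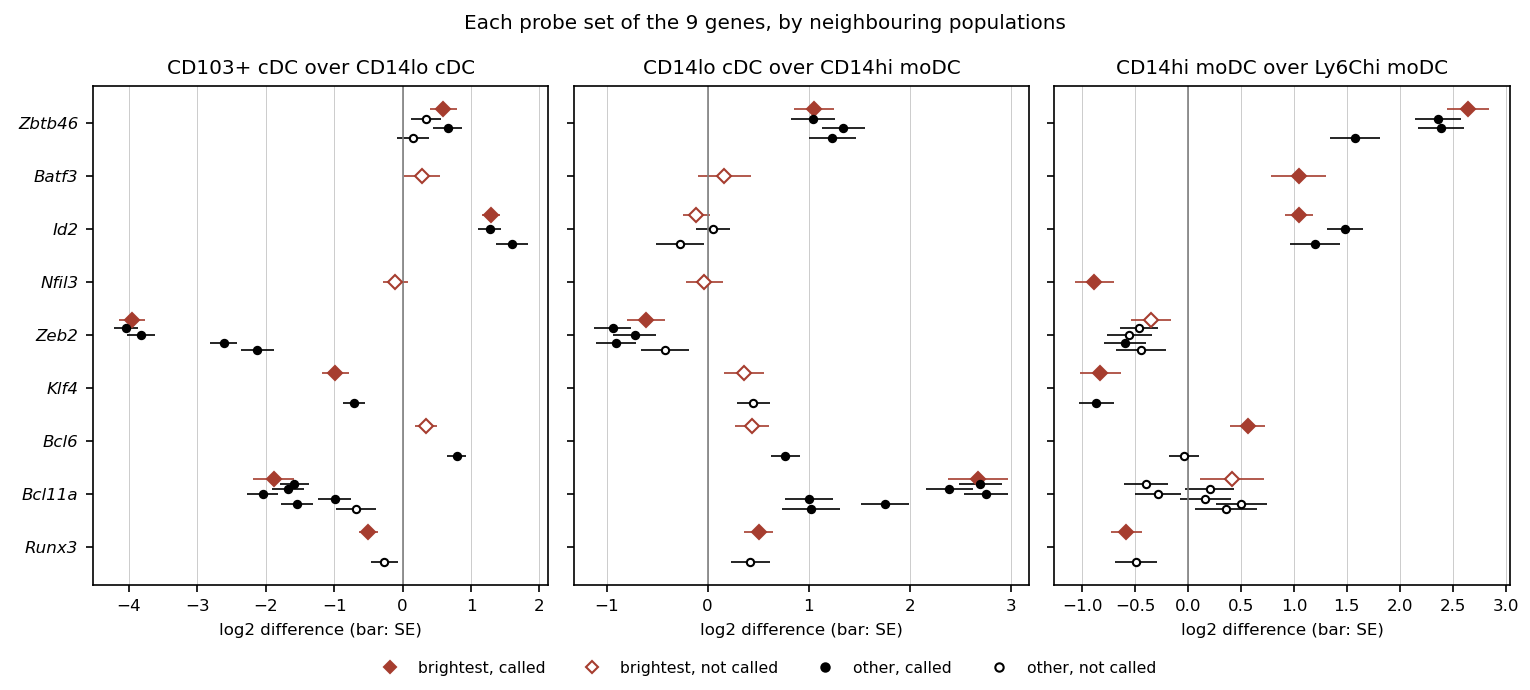
Log2 difference (bar: SE) of every probe set of the 9 genes between the populations that follow each other in the order CD103+ cDC, CD14lo cDC, CD14hi moDC, Ly6Chi moDC; diamonds are the brightest probe set of a gene, circles the others, and filled symbols were called. The 5 Zeb2 probe sets all lie left of 0 in the first panel, and the 2 Bcl6 probe sets part in the third, at 0.56 and -0.04.

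The other lineage factors of DC moved mostly to the conventional side. Of 18 listed, 17 were tested, and 11 were higher and 2 lower in both cDC than in both moDC, with a median log2 difference of 0.69, against 0.0011 over all genes, of which 20.8% were called higher and 20.7% lower. With CD103+ cDC replicates 1 and 3 left out, 11 were higher and 1 lower. Mycl, a MYC family factor that cDC express, had the largest difference, with 1305 ± 389 in CD103+ cDC and 539 ± 149.8 in CD14lo cDC, then 168 ± 50.0 in CD14hi moDC and 57.0 ± 48.5 in Ly6Chi moDC (log2 difference 2.58 ± 0.21, adjusted p = 1.32e-08). Relb, an NF-κB subunit, had 5652 ± 1252 in CD103+ cDC and 3081 ± 765 in CD14lo cDC, then 2402 ± 553 in CD14hi moDC and 841 ± 81.1 in Ly6Chi moDC, and was 2.83-fold higher in both cDC (adjusted p = 6.49e-08). The means of both declined through the populations in the order of Zbtb46, but the Relb arrays of CD14lo cDC (2314 to 3844) and CD14hi moDC (2027 to 3036) overlapped. Against CD14lo cDC, CD103+ cDC had 7 of these factors higher and 6 lower, where 13.4% and 15.3% of all genes were, and without CD103+ cDC replicates 1 and 3 it had 4 higher and 2 lower. The extremes were Irf8, higher, and Bach2, a repressor known from B cells, lower (log2 difference -1.79 ± 0.27, adjusted p = 5.99e-05).

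Of 13 factors of monocytes and macrophages, 12 were tested, and 3 were higher and 7 lower in both cDC than in both moDC, with a median log2 difference of -1.15, against 0.0011 over all genes, of which 20.8% were called higher and 20.7% lower. Without CD103+ cDC replicates 1 and 3, 2 were higher and 7 lower. Maf, which encodes the macrophage factor c-MAF, had 94.8 ± 41.8 in CD103+ cDC and 326 ± 86.0 in CD14lo cDC, then 4075 ± 395 in CD14hi moDC and 5442 ± 436 in Ly6Chi moDC (log2 difference -4.38 ± 0.15, adjusted p = 4.58e-13). Its largest step lay between CD14lo cDC and CD14hi moDC (11.1-fold lower in CD14lo cDC, log2 difference -3.47 ± 0.21, adjusted p = 1.83e-09), whereas that of Zeb2 lay between CD103+ cDC and CD14lo cDC. Mitf, a factor of lysosomal genes, and Nr1h3, the oxysterol receptor LXRα, had log2 differences of -2.74 ± 0.16 and -2.64 ± 0.14 (adjusted p = 9.51e-11 and 3.99e-11). Bhlhe40 of this list ran the other way in its means. It had 14909 ± 2318 in CD103+ cDC and 11466 ± 722 in CD14lo cDC, then 8048 ± 2027 in CD14hi moDC and 7111 ± 705 in Ly6Chi moDC.

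As a description over the 12 arrays, the tested genes whose log2 signals followed each member most closely were listed, 3 per member. The arrays fall into 4 populations of 3, so Pearson's r mostly reflects the population means. Zbtb46 was followed by Vsig10 (r = 0.984), Mtmr4 (0.983) and Nectin1 (0.981), and Vsig10 had means of 1298 ± 246 in CD103+ cDC and 974 ± 237 in CD14lo cDC, then 509.9 ± 28.3 in CD14hi moDC and 41.5 ± 17.1 in Ly6Chi moDC. Zeb2 was followed by the C-type lectin gene Clec4a3 (0.998), Itgam, which encodes the sort marker CD11b (0.996), and Wls (0.995). Clec4a3 had 48.1 ± 44.3 in CD103+ cDC and 2549 ± 106 in CD14lo cDC, then 4169 ± 208 in CD14hi moDC and 5290.3 ± 174 in Ly6Chi moDC, the pattern of Zeb2, and Itgam 50.7 ± 20.5 in CD103+ cDC and 1115 ± 222 in CD14lo cDC, then 1481 ± 11.7 in CD14hi moDC and 2188 ± 177 in Ly6Chi moDC. Id2 was followed by Ly75, which encodes the endocytic receptor DEC-205 (0.989), the cyclin gene Ccna2 (0.983) and Arsb (0.983), and Ly75 had 3889 ± 1298 in CD103+ cDC and 569 ± 92.4 in CD14lo cDC, then 520.5 ± 50.2 in CD14hi moDC and 37.4 ± 39.6 in Ly6Chi moDC. Bcl6 was followed by Srebf2, a regulator of sterol synthesis (0.981), Gpcpd1 (0.971) and Pmvk, an enzyme of that synthesis (0.964). Klf4 was followed by Sema4d (0.963), its relative Klf10 (0.96) and Zfp36l2 (0.959). The values were 0.927 to 0.968 for Nfil3 with Cdc42ep4, Zdhhc21 and Litaf, and the others were Batf3 with Zfp865, Necap2 and Dok1 (0.942 to 0.96), Bcl11a with Plcb2, L1cam and Ankrd55 (0.94 to 0.949) and Runx3 with Ist1, Itprip and Cry1 (0.921 to 0.949).

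Genes listed as markers of other lung cells differed among the populations. The summed signal of 8 lung epithelial genes was 4553 to 8763 in CD103+ cDC and 1626 to 4172 in CD14lo cDC, then 2617 to 3560 in CD14hi moDC and 1877 to 2821 in Ly6Chi moDC, with Cldn18 and Krt8 below the array median in all 4. The 5 neutrophil genes summed to 250.5 to 1853 in CD103+ cDC, 903 to 1233 in CD14lo cDC and 1022 to 2066 in CD14hi moDC, against 4029.8 to 4335 in Ly6Chi moDC, with Ltf below the median in all 4. In Ly6Chi moDC, Csf3r had 1533 ± 290.2, S100a8 1257 ± 264 and S100a9 1214 ± 44.0. The 6 alveolar macrophage genes summed to 1026 to 4609.6 in CD103+ cDC, to 1232, 1361 and 7666 on the CD14lo cDC arrays and to 2086 to 4538 in CD14hi moDC, against 6311 to 8203 in Ly6Chi moDC. The Ly6Chi moDC sum was mostly Chil3, at 6685 ± 1013, while Marco, with 667 ± 168 in CD14hi moDC and 98.0 ± 3.79 in Ly6Chi moDC (adjusted p = 0.00319), and Fabp1, with 153 ± 27.5 in CD14hi moDC and 29.6 ± 16.6 in Ly6Chi moDC (adjusted p = 0.00395), ran the other way. In Ly6Chi moDC the means of Nfil3, Klf4, Zeb2 and Runx3 were highest and those of Zbtb46, Batf3, Id2, Bcl6 and Bcl11a lowest. In CD103+ cDC the means of Zbtb46, Batf3, Id2 and Bcl6 were highest and those of Nfil3, Zeb2 and Klf4 lowest. Not all of these were called against every other population, and on its second probe set Bcl6 was not called between the moDC populations. The part of these transcripts in the differences was not tested.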

How the data were processed

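RNA of 12 sorted samples, 50 ng each, was amplified, biotin labelled and hybridised to an Affymetrix mouse array. The deposited values are linear intensity values that the authors made with MAS5, per the submitters' processing notes, and each array's 2% trimmed mean was 500.003. No detection calls were used here. Dim probe sets were left out by their signal instead. The labels call the samples biological replicates. Of 45101 probe sets, 64 controls were left out, and 25138 exceeded their array's median in at least 3 of 12 arrays. Of all probe sets, 34945 had 1 symbol in the platform annotation, 932 several and 9160 none. The kept probe set with 1 symbol and the highest mean stood for its gene, giving 10929 genes.

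Signals plus 50.0003 (10% of the trimmed mean) were taken to log2, and limma 3.58.1 in R 4.3.3 estimated 1 mean for each population from the 12 arrays (lmFit, eBayes with an intensity trend, 8 residual degrees of freedom, two-sided tests). The script was tested on simulated data. The number of arrays limits the precision. The labels do not say whether equal replicate numbers mark shared mice. Of 18 correlations of same-numbered arrays' deviations from their population means, 8 were over 0.1. The numbers were not used as pairs, and a block on them was run as an alternative.

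The members and gene lists were chosen with earlier results of these data known. Named genes were the 9 members, their structural relatives and partners, the 3 genes most correlated with each, for each list up to 4 of the called genes that differed most, and markers of the sort and of other cells. Cadm1, Tcf4 and Bhlhe40 were singled out after their values were seen. Promoter sequences are from RefSeq (GRCm38.p6), matched by symbol for 9 of 9 members at 14 starts. Alternatives were quantile normalization, median centring, pseudocounts of 25.0001 and 100.001, dropping the filter or raising it to the 75th percentile, averaging the probe sets of a gene, the second probe set, no intensity trend, a replicate block, only the arrays compared and leaving out each array. Leaving out CD103+ cDC replicates 1 and 3 together was chosen after seeing the data. Figures were drawn with matplotlib 3.10.9.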

Additional observations from a re-analysis of the deposited data

How the results depend on the processing

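Over the 63 member differences and their 1489 alternative values, 1402 kept direction and side of the threshold, 57 lost the call, 10 gained it and 20 changed sign. Of 47 called differences, 37 were called with the same direction under every alternative run, and 1 changed sign: Bcl6 in CD14hi moDC over Ly6Chi moDC was -0.039 on its second probe set. The other sign changes were of differences that were not called. On the second probe set Id2 in CD14lo cDC over CD14hi moDC was 0.052, Bcl11a in CD14hi moDC over Ly6Chi moDC -0.40, and Runx3 between both cDC and both moDC 0.042, or 0.0050 with the mean of its probe sets. Nfil3 in CD14lo cDC over CD14hi moDC was 0.0092 with median centring. Runx3 in CD103+ cDC over CD14hi moDC was -0.076 with quantile normalization and -0.21 without CD103+ cDC replicates 1 and 3. Leaving out single arrays, Batf3 in CD14lo cDC over CD14hi moDC ran from -0.010 to 0.37, Nfil3 from -0.29 to 0.095 in CD103+ cDC over CD14lo cDC, from -0.33 to 0.063 in CD103+ cDC over CD14hi moDC and from -0.18 to 0.060 in CD14lo cDC over CD14hi moDC. Runx3 ran from -0.12 to 0.12 in CD103+ cDC over CD14hi moDC and from -0.096 to 0.022 between both cDC and both moDC. The cause of these changes was not tested.

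Counts of called members moved by over 1.5 times in 2 comparisons. In CD14lo cDC over CD14hi moDC the 4 called members were 2 with no intensity trend, and 2 to 4 when single arrays were left out. In CD14hi moDC over Ly6Chi moDC, the second probe set called 3 of the 7 genes that have one. Of these genes, Zbtb46, Id2, Klf4, Bcl6 and Runx3 were called on the brightest probe set. Batf3 and Nfil3, the other called members there, have only 1 probe set. Leaving out single arrays gave 4 to 6 in CD103+ cDC over CD14lo cDC and over CD14hi moDC, 9 to 9 over Ly6Chi moDC, 7 to 8 in CD14lo cDC over Ly6Chi moDC, 5 to 7 in CD14hi moDC over Ly6Chi moDC and 8 to 8 between both cDC and both moDC. With replicate number as a block, the count was 8 in place of 7 in CD14lo cDC over Ly6Chi moDC, since Klf4 became called (-0.47, adjusted p = 0.0343), and the other counts were 6, 6, 9, 4, 7 and 8 as without it. For 8 of 12 arrays, deviations from the population mean correlated best, on average, with the arrays of the same number in the other populations. The median correlation was 0.056 for arrays of the same number and -0.019 for arrays of different number. Whether shared mice lie behind this was not tested. Without CD103+ cDC replicates 1 and 3, which leaves 1 array there with the spread taken from the other populations, the genes called over all genes were 1733 in CD103+ cDC over CD14lo cDC, against 3141 with them, and 2439 over CD14hi moDC, against 4066. Signals near the array median, such as Zeb2 in CD103+ cDC and Bcl11a in the moDC, limit how well a fold can be known.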
